A study of Mustela putorius furo with 2 samples.

Results

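The genes described are the 5 immediate early genes EGR1 (ENSMPUG00000009343), NR4A1, FOSB, JUNB and ARC (ENSMPUG00000019193), taken by symbol from the 28156 features of each matrix. Each symbol matched 1 feature in both libraries, and the rule itself uses no measured value. The data are single-nucleus RNA-seq counts from frozen somatosensory cortex of the ferret (Mustela putorius furo), with unique molecular identifiers (UMIs), which count captured RNA molecules. Both libraries carry the genotype label DCX knockout, although the series text speaks of a knockdown. Their region labels differ: 1 library is of the upper cortical band, and 1 is of the deeper cortical band. The age, sex and number of the animals, and any pooling, are not given in the sources used here, and wild-type tissue was not analysed here.

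Immediate early genes are transcribed within minutes of a strong synaptic input, without new protein synthesis, through kinases that act on the factors CREB, SRF and ELK at their promoters. EGR1, FOSB, JUNB and NR4A1 encode transcription factors, and ARC encodes a synaptic protein that helps remove glutamate receptors from the cell surface. The factors then switch on later effectors such as BDNF and NPTX2, which change the synapses of the active neuron. In cortex these genes serve as markers of recently active neurons, and their RNA can also rise with handling of the animal or tissue.

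The upper-band library held 7151 barcodes and 66253015 UMIs, and the deeper-band library 9694 barcodes and 78352064 UMIs. After filters 6261 and 8150 nuclei remained, and the libraries shared 24 barcodes. Since each band has 1 library, the differences between bands have no replicates behind them, and effects of band, preparation, dissection and animal cannot be told apart. Intervals are 95% intervals of counting error only. Levels are CPM, counts scaled by all UMIs of the class, and they are not compared between genes. Pairs of values give the upper band first. There were 3185 and 3449 excitatory nuclei, 1022 and 770 inhibitory nuclei, 388 and 806 astrocyte-like nuclei, and 926 and 2524 oligodendrocyte-like nuclei. The 12 excitatory markers sum to 3888 and 4235 CPM in the excitatory nuclei, against 318 and 256 CPM in the oligodendrocyte-like nuclei.

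NR4A1 was the only one of the 5 genes with enough UMIs to be followed through classes and subtypes. It encodes an orphan nuclear receptor. It had 1146 and 848 UMIs in the nuclei kept, and 88.8% and 90.3% of them lay in excitatory nuclei, which held 71.3% and 71.6% of all UMIs. The excitatory level was 27.3 CPM (25.6 to 29.0) in the upper band and 20.1 CPM (18.7 to 21.5) in the deeper band. Inhibitory nuclei had 7.69 CPM (5.95 to 9.79) and 5.05 CPM (3.43 to 7.17). Astrocyte-like nuclei had 9.12 CPM (4.55 to 16.3) and 7.04 CPM (3.85 to 11.8), and oligodendrocyte-like nuclei 9.30 CPM (5.75 to 14.2) and 4.58 CPM (2.94 to 6.82). Excitatory nuclei thus stood highest of these 4 classes in both libraries, with intervals that did not overlap the others. The intervals of the other 3 classes overlapped in each band, so their order is not resolved. Vascular-like nuclei had 18.7 and 25.8 CPM from only 9 and 6 UMIs, and oligodendrocyte precursor-like nuclei had 2 UMIs in each library.

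Droplet data contain free RNA from broken cells, for which no correction was made, and its part in the glial levels was not tested. The oligodendrocyte-like level of NR4A1 was 34.1% and 22.8% of its excitatory level. The same ratio was 3.26% and 2.13% for CAMK2A, a kinase gene of excitatory neurons, but 78.7% and 57.2% for the glutamate transporter gene SLC17A7. NR4A1 thus lay between these 2 neuronal genes. After each nucleus was thinned to 1500 UMIs, an NR4A1 UMI was found in 3.38% (2.78 to 4.07) of the excitatory nuclei in the upper band. In the deeper band it was found in 2.50% (2.00 to 3.08). The shares in oligodendrocyte-like nuclei were 1.78% (1.00 to 2.92) and 0.53% (0.27 to 0.95). At this depth the intervals of excitatory and oligodendrocyte-like nuclei overlapped in the upper band and not in the deeper band. Those of excitatory and inhibitory nuclei (1.19%, 0.62 to 2.07, and 0.52%, 0.14 to 1.34) did not overlap in either band, and those of excitatory and astrocyte-like nuclei (1.87%, 0.76 to 3.82, and 1.19%, 0.55 to 2.25) overlapped in both. Unthinned, 23.3% and 17.5% of excitatory nuclei had such a UMI, with median depths of 10749 and 10407 UMIs per nucleus, whereas oligodendrocyte-like nuclei had median depths of only 2250.5 and 1922.5.

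**Figure D1:**
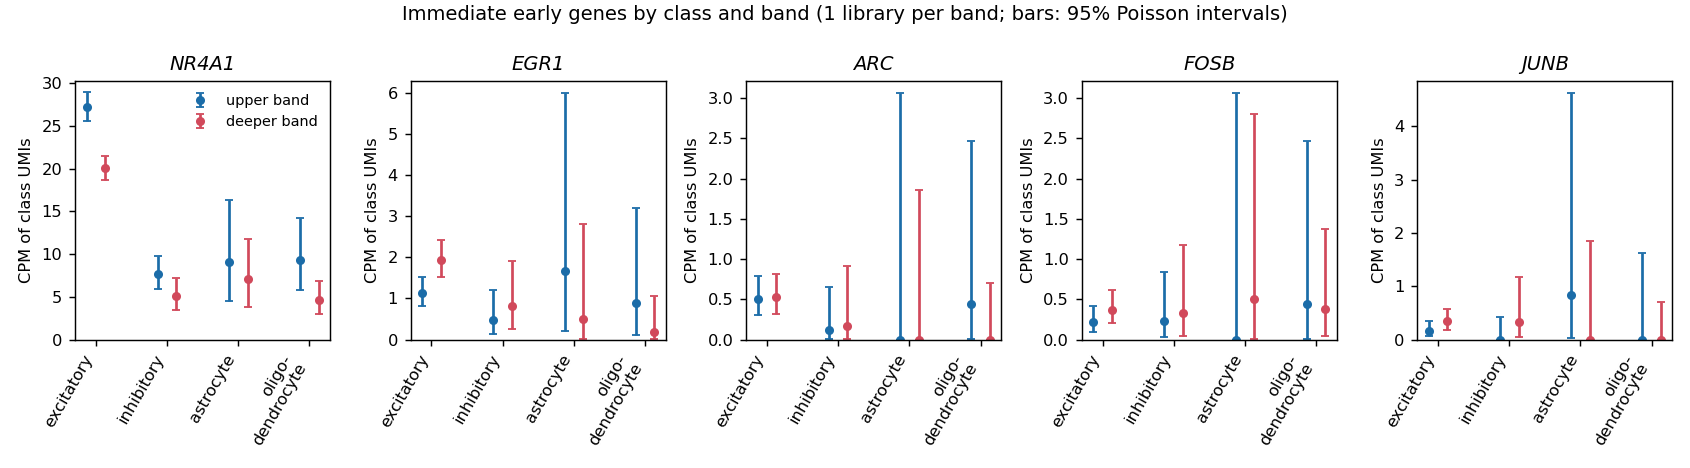
Levels of the 5 genes in CPM of the UMIs of each class (vertical axes, 1 panel per gene, scales differ) in excitatory, inhibitory, astrocyte-like and oligodendrocyte-like nuclei. Points are the single library of each band and bars 95% Poisson intervals; NR4A1 is highest in excitatory nuclei (27.3 and 20.1 CPM), and the other 4 genes have wide intervals in glia.

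EGR1, a zinc finger factor, was found in few molecules. Excitatory nuclei held 42 UMIs in the upper band, or 1.12 CPM (0.81 to 1.52), and 74 in the deeper band, or 1.94 CPM (1.52 to 2.43). Inhibitory nuclei had 4 and 5 UMIs and oligodendrocyte-like nuclei 2 and 1. The oligodendrocyte-like levels were 0.885 CPM (0.107 to 3.20) and 0.19 CPM (0.0048 to 1.06). Astrocyte-like nuclei, with 2 and 1 UMIs, were at 1.66 CPM (0.20 to 5.99) and 0.50 CPM (0.01 to 2.80). EGR1 in excitatory nuclei therefore exceeded the oligodendrocyte-like level beyond counting error in the deeper band only, and it could not be separated from the astrocyte-like level in either band. Of all EGR1 UMIs, 82.4% (69.1 to 91.6) and 88.1% (79.2 to 94.1) lay in excitatory nuclei, which held 71.3% and 71.6% of all UMIs. The EGR1 share thus exceeded the share of all UMIs beyond counting error in the deeper band only.

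ARC, FOSB and JUNB were close to the limit of detection. ARC had 19 and 20 UMIs in excitatory nuclei (0.51 and 0.52 CPM), each in a different nucleus. FOSB, which pairs with JUN proteins, had 8 and 14 UMIs (0.21 and 0.37 CPM). JUNB, a partner of the FOS proteins, had 6 and 13 UMIs (0.16 and 0.34 CPM). In inhibitory nuclei ARC had 1 UMI in each library, FOSB 2 in each, and JUNB 0 and 2. In oligodendrocyte-like nuclei FOSB had 1 and 2 UMIs (0.44 and 0.38 CPM), which its excitatory levels did not exceed. JUNB had 0 UMIs among 926 and 2524 oligodendrocyte-like nuclei, which allows levels of up to 1.33 and 0.57 CPM at 3 counts. ARC had 1 and 0 UMIs in these nuclei, or 0.44 CPM (0.01 to 2.47) and 0 CPM (0 to 0.70). Its excitatory intervals, 0.31 to 0.79 and 0.32 to 0.81 CPM, overlapped these. Excitatory expression of ARC, FOSB and JUNB was thus not distinguishable from the oligodendrocyte-like level at this depth.

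Between bands, EGR1 and NR4A1 differed in opposite directions in excitatory nuclei. In the sentences that follow, a log2 ratio is the deeper-band level over the upper-band level. NR4A1 was lower in the deeper band, with a log2 ratio of -0.44 (-0.58 to -0.31). EGR1 was higher, with a log2 ratio of 0.79 (0.22 to 1.37). For ARC the log2 ratio was 0.04 (-0.94 to 1.03), for FOSB 0.78 (-0.58 to 2.24) and for JUNB 1.08 (-0.41 to 2.77), so their direction is not resolved. With nuclei thinned to 1500 UMIs and clustered again, NR4A1 was at -0.17 (-0.53 to 0.20) and EGR1 at 0.75 (-0.81 to 2.47), so neither direction is resolved under that setting. Of the 2 genes with at least 50 UMIs, EGR1 lay past 1.5-fold and NR4A1 did not. The background for this count is that 4.2% of the 15553 excitatory genes with at least 50 UMIs were over 1.5-fold higher and 7.7% over 1.5-fold lower in the deeper band. NR4A1 was also lower in deeper-band oligodendrocyte-like nuclei (21 and 24 UMIs, log2 ratio -1.02, -1.93 to -0.10). In inhibitory nuclei (66 and 31 UMIs) the log2 ratio was -0.61 (-1.27 to 0.03), past 1.5-fold, where 3.82% of 11880 genes were past 1.5-fold lower. In astrocyte-like nuclei (11 and 14 UMIs) NR4A1 had a log2 ratio of -0.37, with an interval that included 0.

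The band difference of NR4A1 was present inside excitatory subtypes. The excitatory nuclei fell into 17 subclusters, formed without the 5 genes and without the activity genes listed below. Their shares differed strongly between bands, for example 3.42% and 20.3% for subcluster 5, a CUX2-high type led by ANGPT1, and 13.2% and 3.25% for subcluster 8, led by RXFP1 with FOXP2 and SYT6. With the shares set equal, the log2 ratio of NR4A1 was -0.57 and that of EGR1 was 0.68. In the 12 subclusters with at least 50 nuclei in each band, NR4A1 was lower in the deeper band in 10. The level ranged from 17.3 to 39.0 CPM (median 28.1) in the upper band and from 11.5 to 27.0 CPM (median 18.9) in the deeper band. The interval of the ratio lay below 0 in 5 of the 12 and above 0 in none.

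Of those 5 subclusters 4 were named upper-layer-like by the number of raised markers and 1, subcluster 8, was named deep-layer-like. The name is less sure for subclusters 2 and 6, which had 4 and 3 raised upper-layer markers and 1 deep-layer marker each. Their CUX2 levels were 21.02 and 33.52 CPM, against 521.8 and 839.6 CPM in subclusters 4 and 15 and 10.68 CPM in subcluster 8. The layer of subclusters 2 and 6 is thus not resolved. Subcluster 15 (led by PTGIS, high in CUX2 and RORB) had 60 NR4A1 UMIs and 39.0 CPM in the upper band. Its deeper-band nuclei had 81 UMIs and 18.3 CPM, which gives a log2 ratio of -1.09 (-1.59 to -0.58). Subcluster 6 (led by SH3BP4, with RORB and LGR5) was at 29.4 and 11.5 CPM, and its log2 ratio was -1.35 (-2.35 to -0.48). Subcluster 2 (led by TMEM132C and GALNT14) had 25.3 and 13.1 CPM, and subcluster 8 had 27.6 and 15.7 CPM. Subcluster 4 (led by TRPC6, CUX2-high) had 34.2 and 25.4 CPM. The exceptions were subcluster 7 (led by HMCN1) with 25.1 and 27.0 CPM and subcluster 14 (led by MEGF10) with 20.4 and 21.8 CPM, whose ratios both had intervals across 0. Subcluster 8 has the astrocyte marker BMPR1B among its leading genes. Subcluster 9, also among the 12, has the astrocyte marker AQP4 and the oligodendrocyte precursor marker MEGF11. Its NR4A1 level was 28.6 and 22.9 CPM, with an interval of the ratio across 0.

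**Figure D2:**
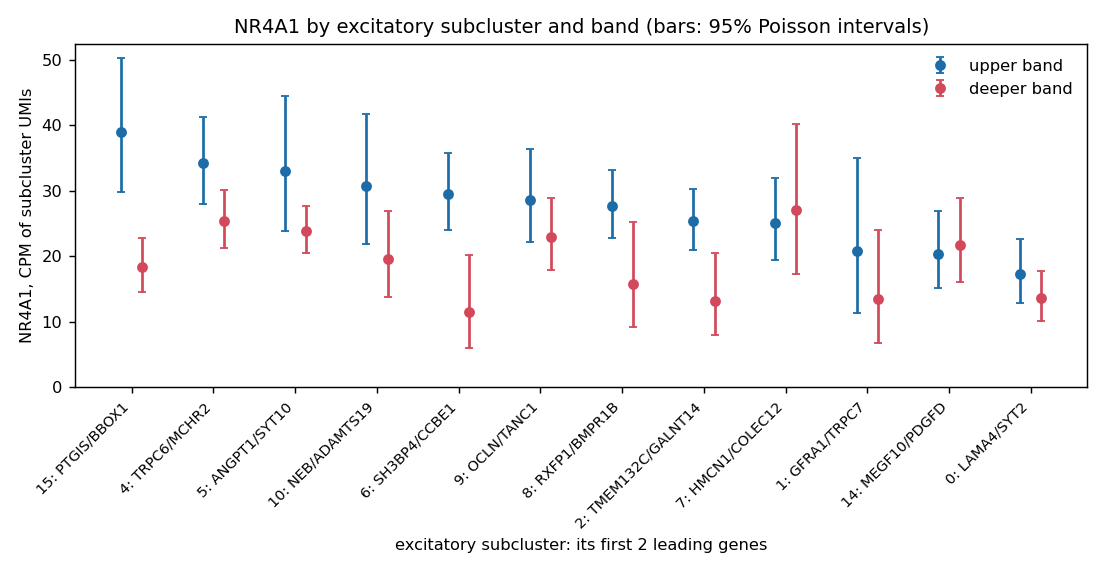
NR4A1 in CPM of subcluster UMIs (vertical axis) in the 12 excitatory subclusters with at least 50 nuclei in each band, ordered by the upper-band level and labelled with their number and leading genes. Points are the single library of each band and bars 95% Poisson intervals; the deeper-band point is lower in 10 of the 12.

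Over all 17 subclusters, subcluster 3 (NXPH2, TLE4 and SYT6) had the highest upper-band level of NR4A1, 48.7 CPM from 81 UMIs, against 4 UMIs in its 19 deeper-band nuclei. Subcluster 11 (KLHL14, with NXPH2 and FEZF2) had the lowest, 13.8 CPM from 17 UMIs, and 0 UMIs in 20 deeper-band nuclei. These 2 deep-layer-like types, both high in NXPH2, were thus at opposite ends of the upper-band order. EGR1 had at most 22 UMIs in any subcluster and band. EGR1 was higher in the deeper band in 8 of the 12 larger subclusters, and no single interval excluded 0. These 8 include subcluster 7, where the levels were practically equal (2.25 and 2.25 CPM from 6 and 2 UMIs). The 22 UMIs were in deeper-band nuclei of subcluster 5 (2.91 CPM), where the upper band had 1 UMI.

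The relatives of EGR1 and NR4A1 were compared next, and those outside the rule for named genes were picked after their values were seen. EGR2, EGR3 and EGR4 were each higher in the deeper band, as EGR1 was. EGR2 had 32 and 78 UMIs in excitatory nuclei (log2 ratio 1.25, 0.64 to 1.90), EGR3 had 66 and 109 (0.69, 0.24 to 1.16) and EGR4 had 364 and 547 (0.56, 0.36 to 0.75). With subcluster shares set equal the 3 ratios were 0.83, 0.41 and 0.43 on the log2 scale. They were higher in the deeper band in 8, 6 and 10 of the 12 larger subclusters. The NR4A family did not share 1 direction. NR4A2 had 301 and 329 UMIs and a log2 ratio of 0.10 (-0.13 to 0.33). NR4A3 had 1136 and 881 UMIs, and its log2 ratio of -0.40 (-0.53 to -0.27) resembled that of NR4A1 until shares were set equal, when it became 0.13. The lower deeper-band level of NR4A1 thus remained at equal shares, and that of NR4A3 did not.

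Among the partners of FOSB and JUNB, JUN, JUND and FOS were higher in the deeper band. JUN had 375 and 503 UMIs (log2 ratio 0.39, 0.20 to 0.59) and was higher in 12 of the 12 larger subclusters. FOS had 170 and 218 UMIs (0.33, 0.03 to 0.63), and JUND, with 27 and 53 UMIs, had a log2 ratio of 0.94 (0.25 to 1.67). FOS was higher in 7 and JUND in 9 of the 12. The oligodendrocyte-like level of JUN was 190% and 155% of its excitatory level, and that of FOS 107% and 60.2%, both larger shares than the 34.1% and 22.8% of NR4A1. In inhibitory nuclei FOS had 22 and 36 UMIs and a log2 ratio of 1.19 (0.39 to 2.03), while NR4A1 there had a negative ratio.

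**Figure D3:**
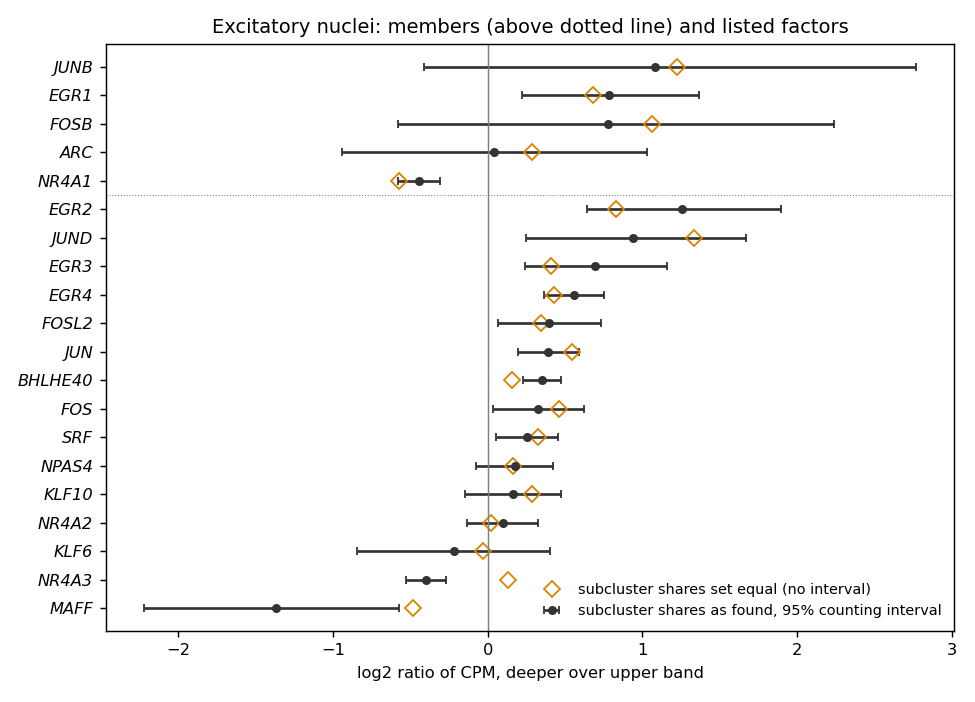
Log2 ratio of CPM, deeper over upper band (horizontal axis), in excitatory nuclei for the 5 genes (above the dotted line) and the listed transcription factors with at least 50 UMIs. Filled points with bars are ratios with subcluster shares as found and their 95% counting intervals, and open diamonds are ratios with shares set equal; NR4A1 stays negative (-0.44 and -0.57) and NR4A3 moves from -0.40 to 0.13.

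Of 21 listed immediate early transcription factors, 20 were in the files and 15 had at least 50 UMIs. In excitatory nuclei 3 of them (EGR2, JUND and EGR3) were over 1.5-fold higher in the deeper band and 1 was over 1.5-fold lower, where all genes gave 4.2% higher and 7.7% lower. Their median log2 ratio was 0.33, against -0.03 over all 15553 genes. The lowest were MAFF, a small MAF factor, at -1.37 (48 and 19 UMIs), NR4A3, and KLF6 at -0.22. Of 31 effectors and late response genes in the files 29 had enough UMIs, 4 were past 1.5-fold higher and 1 lower, beside the same 4.2% and 7.7%, and their median was 0.02. The highest were GADD45B, a regulator of DNA repair and demethylation, at 0.93, the granule protein gene SCG2 at 0.84 and INHBA, an activin subunit, at 0.74. The lowest were the phosphatase gene DUSP5 at -0.66, LMNA (lamin A) at -0.44 and PTGS2 (cyclooxygenase 2) at -0.41. The fourth effector past 1.5-fold higher was BTG2 (0.61), a regulator of cell growth. With subcluster shares set equal, SCG2 was at 1.07 and GADD45B at 0.65, while BTG2 came to 0.11, INHBA to 0.34, DUSP5 to -0.37, PTGS2 to -0.13, LMNA to -0.20 and MAFF to -0.48.

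Of the 33 upstream regulators with enough UMIs none was over 1.5-fold higher and 2 were lower, a count near the 4.2% and 7.7% of all genes. Their median log2 ratio was 0.10. The lowest were the CREB coactivator gene CRTC2 at -1.05 and the kinase genes RPS6KA1 at -0.72 and RPS6KA2 at -0.55. The highest were ELK4 at 0.43, MAPK3 at 0.42 and NAB2, a corepressor of EGR proteins, at 0.36. Several of these genes were sparse. In excitatory nuclei thinned to 5000 UMIs, ELK4 had 14 and 26 UMIs, MAPK3 6 and 10, NAB2 44 and 75 and RPS6KA1 31 and 25. No interval is given here for their ratios, so their direction is not taken as resolved. Heat shock and stress genes can mark RNA from stressed tissue. Of 15 listed, 9 were in the files and 8 had enough UMIs in excitatory nuclei. Of these 8, 2 (CRYAB and HSP90AB1) were past 1.5-fold higher in the deeper band and none lower. All genes gave 4.2% higher and 7.7% lower, and the median of the 8 was 0.20. CRYAB had 3.24 and 11.5 CPM and HSP90AB1 143 and 225 CPM. No correction for free RNA was made, and its part in these levels was not tested. DDIT3 was at 0.34, and the lowest were DDIT4 at -0.09, HSPB1 at -0.03 and TXNIP at 0.06. BAG3, under the minimum with 34 and 11 UMIs, was at -1.66 (-2.79 to -0.64). In inhibitory nuclei 4 of 6 were past 1.5-fold higher, with a median of 0.72, where 3.49% of 11880 genes were past 1.5-fold higher. Their part in the band differences of EGR1 and the other immediate early genes was not tested.

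Within a library, NR4A1 molecules marked nuclei that also carried other activity genes. To see this, excitatory nuclei with at least 5000 UMIs were thinned to 5000, which left 3062 and 3308 nuclei, of which 353 and 298 had an NR4A1 UMI. Each gene's mean in these positive nuclei was set against the mean in negative nuclei of the same subclusters. Among 9601 genes with at least 100 thinned UMIs in each library, 21 (0.219%) were at least 1.5-fold higher in positive nuclei in both libraries. The 5 highest, ranked by the lower of the 2 libraries among the 7554 that have a symbol, were NR4A3, TIPARP, SERPINE2, NPTX2 and NPAS4.

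NR4A3, the paralog of NR4A1, was 2.73-fold (2.28 to 3.23) and 4.57-fold (3.78 to 5.48) higher in nuclei with an NR4A1 UMI. TIPARP, an ADP-ribosyltransferase induced by the aryl hydrocarbon receptor, was 3.06-fold (2.29 to 4.00) and 2.71-fold (2.03 to 3.53) higher. SERPINE2, a secreted protease inhibitor, was 2.52-fold (2.21 to 2.86) and 2.71-fold (2.47 to 2.97) higher. NPTX2, a pentraxin that gathers glutamate receptors, was 2.18-fold (1.73 to 2.71) and 2.78-fold (2.13 to 3.56) higher. NPAS4, a neuron-specific activity factor, was 2.15-fold (1.39 to 3.17) and 2.07-fold (1.31 to 3.11) higher. With nuclei thinned to 3000 UMIs NPAS4 was no longer past 1.5-fold in both libraries, the lower log2 ratio being 0.23 in place of 1.05. TIPARP and SERPINE2 are on none of the lists used here. These intervals treat molecules as independent. Genes such as NR4A3, whose counts are more spread over all excitatory nuclei, can vary more than that.

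By list, 4 of 7 listed transcription factors with enough UMIs (NR4A3, NPAS4, NR4A2 and EGR4) were over 1.5-fold higher in both libraries. Of the effectors 4 of 16 were, namely NPTX2, HOMER1, PCSK1 and BDNF. Of the genes in this paragraph, only NR4A3, NPTX2 and NPAS4 were examined at 3000 UMIs. At that depth NPAS4 was not past 1.5-fold in both libraries. HOMER1, a scaffold of glutamate receptors, was 1.97-fold (1.90 to 2.03) and 2.09-fold (2.02 to 2.16) higher from 3695 and 3512 UMIs in positive nuclei. BDNF was 2.35-fold and 1.56-fold higher. Of 26 upstream regulators only NTRK2, which encodes the receptor of BDNF, passed, at 1.58-fold and 1.77-fold, and none of 3 heat shock and stress genes did. JUN, at 0.83-fold (0.48 to 1.33) and 1.15-fold (0.75 to 1.70), was not raised in these nuclei beyond counting error. Its relatives were under the minimum of 100 thinned UMIs. FOS (77 and 99 thinned UMIs) was at 1.79-fold (1.02 to 2.91) and 5.15-fold (3.54 to 7.23). FOSL2 (49 and 82) was at 2.53-fold (1.31 to 4.41) and 3.41-fold (2.11 to 5.22). JUND (12 and 24) was at 1.27-fold and 0.85-fold, with intervals across 1. FOSL1, FOSB and JUNB had 0 UMIs in the positive nuclei. The genes other than those 5 are named after their values were seen.

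**Figure D4:**
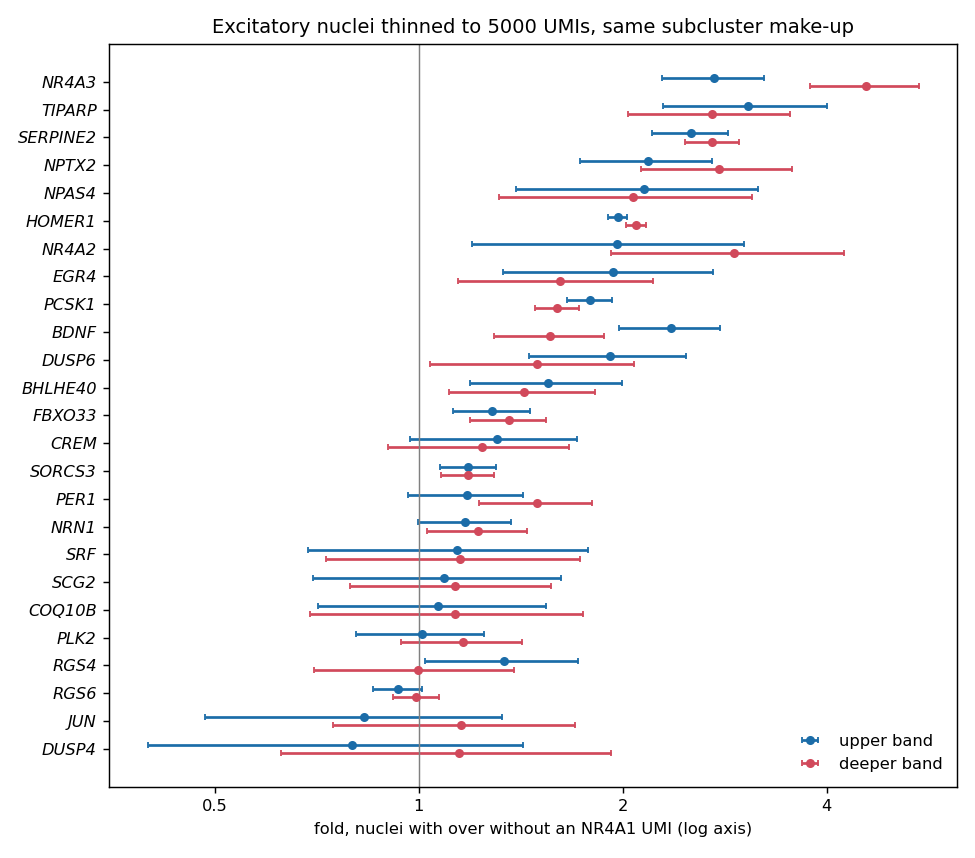
Fold of the mean count in excitatory nuclei with an NR4A1 UMI over nuclei without one (horizontal log axis), after thinning to 5000 UMIs and at the same subcluster make-up, for the 5 highest genes and the listed factors and effectors with at least 100 thinned UMIs in each library. Bars are 95% Poisson intervals; NR4A3, TIPARP, SERPINE2, NPTX2 and NPAS4 lie above 2-fold in both libraries, and JUN lies at 0.83 and 1.15.

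The other 4 genes gave few nuclei for the same comparison. Nuclei with both an NR4A1 and an EGR1 UMI numbered 5 and 7, where 2.17 and 2.96 would be met if the 2 genes were independent inside subclusters, a ratio of 2.31 (0.75 to 5.38) and 2.37 (0.95 to 4.88). ARC was found with NR4A1 in 1 and 3 nuclei, against 0.81 and 0.85, and FOSB and JUNB in none. Summed over these 4 genes the ratio of found to independent was 1.66 (0.61 to 3.61) in the upper band and 2.19 (1.05 to 4.02) in the deeper band. For NR4A3 the nuclei with both numbered 70 and 50, against 36.8 and 22.4, a ratio of 1.90 (1.48 to 2.40) and 2.23 (1.66 to 2.94).

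NR4A1 molecules were themselves only mildly clumped. Before thinning, 551 upper-band excitatory nuclei had 1 NR4A1 UMI, 137 had 2 and 55 had 3 or more, and the deeper-band numbers were 491, 83 and 31. The Fano factor, the variance over the mean, which is 1 for molecules placed at random, was 1.24 and 1.19 after thinning to 5000. Genes with 50 to 500 thinned UMIs had a median of 1.03 in both libraries and a 95th percentile of 1.31 and 1.30, so NR4A1 lay above the median and inside the range. NR4A3, at a similar number of UMIs (510 and 408), had 2.17 and 2.56. These factors were taken over all excitatory nuclei together, so they include differences between subclusters, whose part was not tested. Over the 12 larger subclusters NR4A3 ranged from 7.81 to 71.5 CPM in the upper band and from 6.35 to 92.7 CPM in the deeper band. NR4A1 ranged from 17.3 to 39.0 CPM and from 11.5 to 27.0 CPM.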

How the data were processed

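The authors deposited, for each library, UMI counts per gene and barcode, not normalized. All values are whole numbers, and per the file headers software version 3.1.0 wrote them. Cell Ranger 2.1.1 and 6.2.1 are listed in the submitters' processing notes. The genome build and the treatment of intronic reads are not given in the sources used here. Neither was the strand setting, so overlapping genes cannot be told apart. No sequence or coordinate is printed.

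From these counts, nuclei with at least 500 genes were kept and doublets removed per library with Scrublet (scanpy 1.11.5, expected rate 0.8% per 1000 nuclei), which took 11.7% and 15.2% against 5.67% and 7.69% expected. Medians of 7992 and 4888 UMIs per nucleus remained. Clustering used 2000 variable genes, without the 5 genes and the listed factors and effectors, 30 principal components, 15 neighbours and Leiden resolution 1 (igraph 0.11.9). Classes were named from marker lists by the number of raised markers, a scoring rule set after clusters had been seen, and 307 and 183 nuclei stayed unnamed. Class names mean resemblance. Sums carry exact Poisson intervals, shares Clopper-Pearson intervals and ratios conditional binomial intervals, all at 95%. There is no test, since each band has 1 library.

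Ratios at equal shares weight each subcluster by its pooled share of UMIs in both bands. Scripts were tested on simulated data. The named genes are the 5 genes, the up to 3 highest and 3 lowest log2 ratios of each list among genes with at least 50 UMIs, and the 5 genes highest in nuclei with an NR4A1 UMI. The genes and lists were chosen with earlier results of these data known. Alternatives changed the scaling, doublet removal, gene minimum, depth, clustering genes, subcluster resolution and list minimum.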

Additional observations from a re-analysis of the deposited data

How the results depend on the processing

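Among the alternatives for the band difference in excitatory nuclei, NR4A1 kept a negative log2 ratio in all 11, from -0.57 to -0.17. The value nearest 0, -0.17 (-0.53 to 0.20), came with nuclei thinned to 1500 UMIs and clustered again. The cause was not tested. A second thinning to 1500 UMIs with the main classes, added after seeing the data and read as the share of nuclei with a UMI, gave -0.44 (-0.86 to -0.01) for NR4A1 and 2.05 (0.45 to 4.07) for EGR1, so the 2 thinnings, which also differ in classes and measure, gave different values. Thinning to 5000 UMIs, chosen after seeing the data, gave -0.40 (-0.61 to -0.19). EGR1 ranged from 0.62 to 2.05 over its 11 alternatives, and its interval included 0 in the first thinning to 1500 UMIs (0.75, -0.81 to 2.47) and at 5000 UMIs (0.64, -0.22 to 1.54). Without the excitatory subclusters led by a glial marker, and with only the subclusters of at least 50 nuclei in each band (both chosen after seeing the data), neither gene changed direction. In inhibitory nuclei the log2 ratio of NR4A1 ranged from -1.18 to 0.02, both ends from thinning to 1500 UMIs. ARC, FOSB and JUNB crossed 0 in excitatory nuclei, with lowest values of -0.71, -0.12 and -0.11, and JUNB had 0 UMIs in 1 band at 1500 UMIs, so no ratio. Thinning to 3000 UMIs, also chosen later, moved 2 of the genes found with NR4A1 past their counting intervals: the lower of the 2 libraries was 0.68 in place of 1.12 for NPTX2 and 0.23 in place of 1.05 for NPAS4 on the log2 scale, while NR4A3 came to 1.37 from 1.45, TIPARP to 1.08 from 1.44 and SERPINE2 to 1.42 from 1.33. Co-detection of NR4A1 with NR4A3 stayed between 1.78 and 2.87 times the independent number in both libraries. No paired analysis was possible because each band has 1 library, and for the same reason no library could be left out.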
